A study of Homo sapiens with 6 samples.

Results

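The CEP genes encode centrosomal proteins, and this account follows the 38 protein-coding genes on chromosomes 1-22 and X whose symbol is CEP followed by a number, with or without letters after it. They were found among 19974 protein-coding genes of the gene table. The genes were chosen by symbol, and the group was proposed because peaks near these genes had already been seen in the same peak lists. The peak values below are therefore a description, with no test. CEP57L1, whose symbol carries a further digit, lay just outside the rule and had a peak in clone 1 only, with a fold of 3.73.

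The samples were ATAC-seq libraries, made with a transposase that cuts and tags open DNA, of U937, an established human monocytic cell line. The ΔNSPs group held 3 clones described as independent, in which the neutrophil serine proteases CTSG, ELANE and PRTN3 had been depleted simultaneously. The control group held 3 lines that carried control plasmids, and the labels do not say whether these were clones. Cells of both groups were selected with geneticin at 500 µg/ml, treated with DNase at 200 units/ml for 30 min and frozen in medium with 5% DMSO, so exposure to these agents was common to all 6 libraries. Because each ΔNSPs library is a separate clone, the spread over the 3 libraries holds clone differences and technical error together, and a preparation or sequencing batch that followed the groups cannot be told apart from them.

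The lists differed greatly in length, and this bears on every result. Peaks on chromosomes 1-22, X and Y numbered 14262 in clone 1, 24981 in clone 2 and 2188 in clone 3, while control lines 1, 2 and 3 listed 13, 4 and 2. The lowest listed −log10 p was 4.89, 4.86 and 5.75 in clones 1, 2 and 3, and 7.45, 7.79 and 8.0 in control lines 1, 2 and 3. The lowest −log10 q was 2.00 in each clone and 2.07, 2.04 and 2.02 in control lines 1, 2 and 3, so the lists began at about the same q but at different p. Depth is not known, because the lists give no read totals. A list holds no value where no peak was called, so a site without open chromatin and a site below the threshold cannot be told apart. Of 10 monocytic marker genes, 6 had a peak at a gene end in at least 1 clone, where 46.6% of all genes had one. CD68 had it in all 3 clones, ITGAM in clones 1 and 2, and CD33, CD14, CSF1R and CD4 in clone 2 only, while LYZ, FCGR1A, MPO and SPI1 had none in any library. Of 10 marker genes of T cells, B cells, epithelium and liver, only CD3E had one, in clones 1 and 2.

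Centrosomes are built around a pair of centrioles, barrels of microtubules that duplicate in step with DNA replication. The mother centriole carries distal and subdistal appendages, organises the pericentriolar material that nucleates microtubules, and can dock at the membrane to template a cilium. CEP proteins act at each of these places, as scaffolds of centriole duplication, as appendage components, in satellites and the ciliary transition zone, and in the linker that holds centrosomes together. Their genes are expressed in dividing cells of many tissues and are not markers of the monocytic lineage.

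CEP genes carried peaks at their ends in the ΔNSPs clones and in no control line. A gene-end peak is a peak within 1000 bp of either end of a gene. Such peaks were present at 26, 21 and 9 of the 38 CEP genes in clones 1, 2 and 3, and at 0 of 38 in control lines 1, 2 and 3. The mean was 49.1% ± 23.0 of the CEP genes in the clones against 0% ± 0 in the control lines (SD, n = 3 each). Clones 1, 2 and 3 had gene-end peaks at 68.4, 55.3 and 23.7% of the CEP genes, where the background over all 19974 protein-coding genes was 39.1, 29.6 and 6.55%. In the control lines the background was 0.00501%, a single gene, so 0 of 38 is what the short lists give for nearly any group of genes. The control peak nearest to a CEP gene lay 682 kb from CEP170B.

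**Figure D1:**
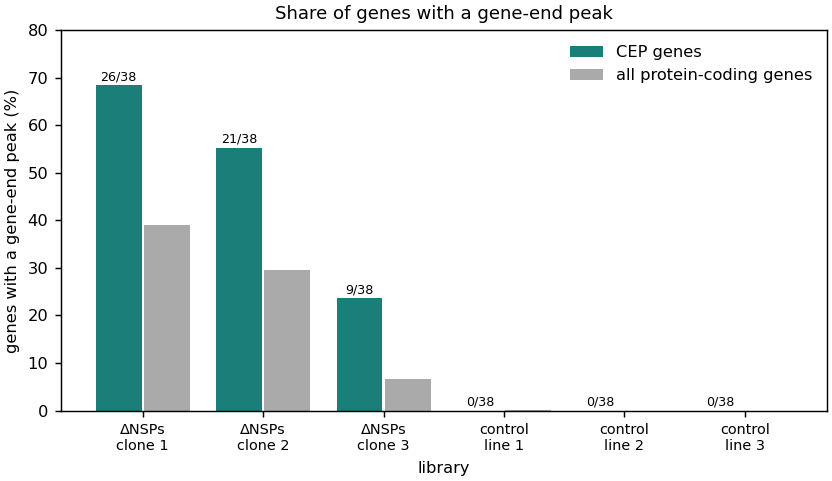
Share of genes with a gene-end peak (%, vertical axis, from 0) in each library, for the 38 CEP genes (green, with counts) and for all 19974 protein-coding genes (grey). The CEP share stands above the grey bar in clones 1, 2 and 3 (68.4, 55.3 and 23.7% against 39.1, 29.6 and 6.55%), and both are at or near 0 in the control lines.

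At least 2 clones and no control line had a gene-end peak at 20 of 38 CEP genes (52.6%), against a background of 23.3%. All 3 clones had one at 8 CEP genes (21.1%, background 5.40%), namely CEP152, CEP43, CEP350, CEP20, CEP85, CEP170, CEP250 and CEP192. Another 12 genes had a peak in 2 clones, of which 11 had it in clones 1 and 2. A further 8 genes had a peak in 1 clone, 6 of them in clone 1 and CEP44 and CEP72 in clone 2. No gene-end peak was listed in any library at 10 genes (26.3%, against 53.4% of all genes). All 9 CEP genes of clone 3 and 19 of the 21 of clone 2 (90.5%) were among the 26 of clone 1, and over all genes these shares were 94.8 and 75.2%. The condition on the control lines removed no CEP gene. The count of 20 rested on clones 1 and 2, since it was 8 without clone 1 (all genes 5.63%) and 9 without clone 2 (all genes 6.21%). With each clone list reduced to its top 2188 peaks it was 5 (13.2%, all genes 4.90%).

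**Figure D2:**
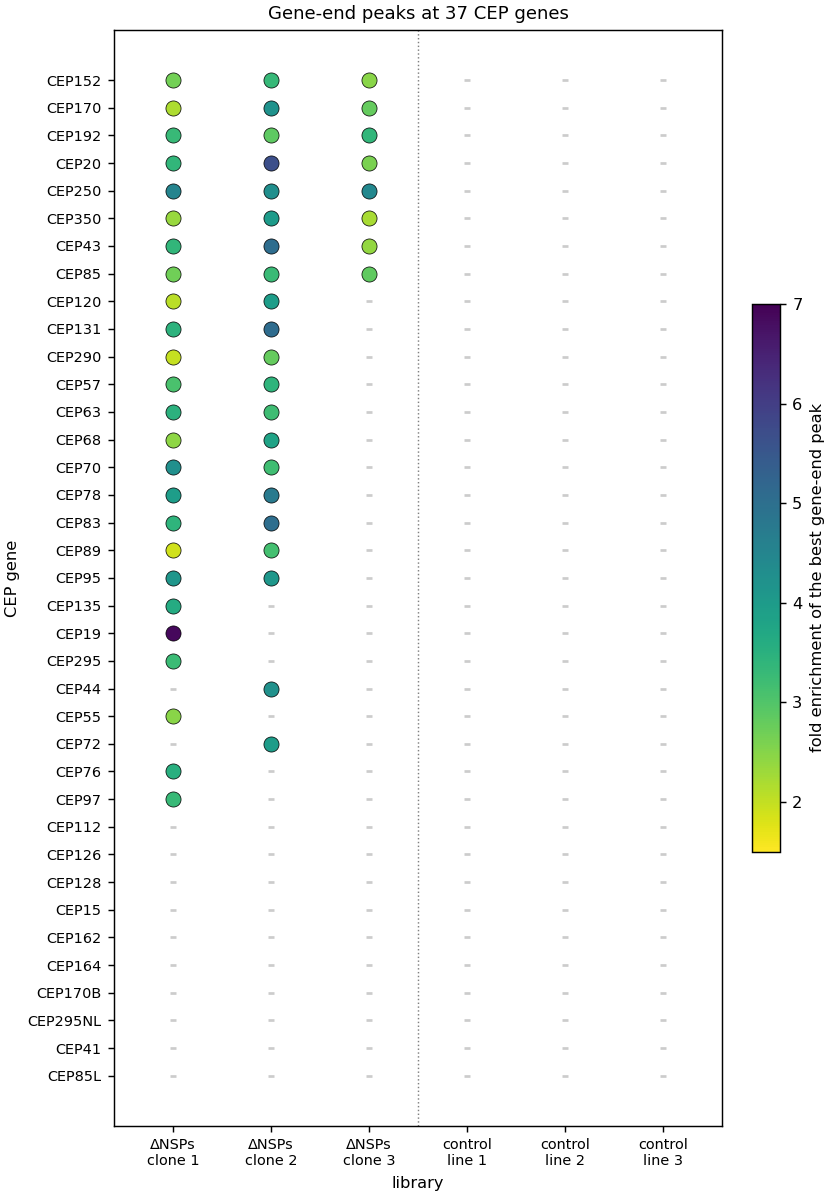
Gene-end peaks at 37 of the 38 CEP genes (rows) in the 3 ΔNSPs clones and 3 control lines (columns). A dot marks a peak and its colour gives the fold enrichment of the best peak, with a dash where none was listed. The 8 genes at the top have a dot in all 3 clones, the 10 at the bottom in none, and the control columns hold no dot.

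Genes of centriole duplication and growth had a peak in 2 or more clones at 6 of 11 members (54.5%, all genes 23.3%) and in 1 clone at the other 5. CEP152, a scaffold that recruits the duplication kinase PLK4, had the lowest sum of ranks over the clones among the 8 genes found in all 3. Its start lies on chromosome 15 at 48811069 (minus strand, GRCh38), and its peaks were at 48811025-48811399 in clone 1, 48811029-48811365 in clone 2 and 48811092-48811332 in clone 3. The folds were 2.67, 3.32 and 2.48 in clones 1, 2 and 3, and the −log10 q values 10.5, 15.1 and 9.15. It ranked 1362 of 14262, 1368 of 24981 and 77 of 2188, the last of these being the best rank of any CEP gene in clone 3. CEP43, at 1252 and 576, was among several CEP genes that stood ahead of it in clones 1 and 2. These folds were modest, and the pile-ups were the deepest of any CEP gene in each clone, at 81, 79 and 93 reads over an implied local background of 29.7, 23.1 and 36.8 reads. The summits lay at −123, −114 and −130 bp, counted from the start with upstream negative.

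The promoter windows of the 4 genes with the lowest rank sums among those with peaks over the window in all 3 clones are shown because the clones' summits fall inside them. Each is the RefSeq sequence (GRCh38.p14) from 250 bases before to 50 after the gene's start, 5′ to 3′ on the gene's strand. Capitals mark matches to the motifs searched, which are spelled out further below.
CEP152 (chr15:48811020-48811319, minus strand): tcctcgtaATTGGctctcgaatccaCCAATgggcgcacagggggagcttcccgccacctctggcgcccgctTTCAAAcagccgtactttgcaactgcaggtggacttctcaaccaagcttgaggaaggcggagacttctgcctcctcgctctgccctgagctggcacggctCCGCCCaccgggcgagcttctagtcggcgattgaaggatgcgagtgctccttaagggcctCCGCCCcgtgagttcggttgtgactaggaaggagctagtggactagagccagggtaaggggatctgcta
CEP43 (chr6:166999147-166999446, plus strand): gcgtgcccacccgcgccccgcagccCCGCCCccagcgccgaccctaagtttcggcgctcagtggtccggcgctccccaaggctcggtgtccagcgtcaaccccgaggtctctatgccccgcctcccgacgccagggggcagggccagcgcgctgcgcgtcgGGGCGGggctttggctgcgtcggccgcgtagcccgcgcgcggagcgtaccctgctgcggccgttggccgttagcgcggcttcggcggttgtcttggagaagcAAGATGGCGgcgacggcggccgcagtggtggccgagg
CEP350 (chr1:179954560-179954859, plus strand): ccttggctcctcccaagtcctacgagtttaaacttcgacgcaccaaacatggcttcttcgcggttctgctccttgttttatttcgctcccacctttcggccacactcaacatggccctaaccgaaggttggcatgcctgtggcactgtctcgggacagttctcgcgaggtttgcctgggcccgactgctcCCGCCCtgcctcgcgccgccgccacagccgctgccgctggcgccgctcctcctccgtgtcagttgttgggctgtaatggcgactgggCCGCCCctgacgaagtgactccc
CEP20 (chr16:15888554-15888853, minus strand): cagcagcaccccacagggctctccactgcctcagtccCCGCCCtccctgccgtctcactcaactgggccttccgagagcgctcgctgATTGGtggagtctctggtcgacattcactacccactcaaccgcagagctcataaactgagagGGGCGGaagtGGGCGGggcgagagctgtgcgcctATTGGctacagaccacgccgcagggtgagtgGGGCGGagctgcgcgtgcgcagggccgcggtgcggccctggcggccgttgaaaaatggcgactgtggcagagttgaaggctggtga

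The CEP152 window holds 2 CCAAT boxes, 1 in each direction, and 2 GC boxes and a TTTGAA element on the strand opposite to the gene. CEP43 has 2 GC boxes and a YY1 core that lies just after the start. CEP350 has 2 GC boxes, and CEP20 has 4 GC boxes and 2 CCAAT boxes. The GC content of the 4 windows was 60.3, 75.3, 62.3 and 65.3% in that order.

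CEP192, a pericentriolar scaffold that recruits PLK4 and Aurora A, starts on chromosome 18 at 12991362 (plus strand). It had folds of 3.30, 2.87 and 3.37 in clones 1, 2 and 3, with −log10 q values of 6.89, 2.48 and 3.07. Its pile-ups were 38, 20 and 22 reads and its peaks lay at 12991259-12991644, 12991143-12991281 and 12991251-12991528 in clones 1, 2 and 3. The clone 2 value was among the weakest of its list, at rank 21432 of 24981. CEP85, which binds the duplication factor STIL, starts on chromosome 1 at 26234200 (plus strand) and had folds of 2.69, 3.27 and 2.85 and −log10 q values of 6.55, 9.44 and 2.30. The pile-ups were 52, 52 and 24 reads, at 26233904-26234551, 26233970-26234127 and 26233910-26234166 in clones 1, 2 and 3, from peaks whose summits lay at −115, −155 and −76 bp from its start. All of these intervals overlapped from clone to clone, for CEP192 as for CEP85.

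CEP120, which acts in centriole elongation, had a fold of 2.08 in clone 1 and 3.97 in clone 2, with −log10 q values of 2.86 and 14. Its summits lay 343 and 409 bp inside the gene, beside the second of the starts the promoter table gives it. CEP63, the partner of CEP152, had 3.49 and 3.20, and CEP57, a pericentriolar component, 3.07 and 3.42 in clones 1 and 2. The CEP57 values came from intervals that do not overlap, at 95789455-95790115 and 95790377-95790473 on chromosome 11, and the clone 2 peak that does overlap the clone 1 interval had a fold of 2.63. CEP135 of the cartwheel region, CEP295, which acts in the conversion of centrioles to centrosomes, CEP76, which limits reduplication, and CEP97, a partner of the cap protein CP110, had a peak in clone 1 only. Their folds were 3.63, 3.26, 3.54 and 3.30 in that order, and CEP97 had the highest −log10 q of them, 9.62. CEP44 had a peak in clone 2 only, with a fold of 4.23 and a −log10 q of 13.3. Its summit lay at −467 bp from the gene's outer end, and the annotated start lies 205 bp inside that end. The CEP44 peak was also within the window of the neighbouring gene FBXO8.

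Genes of the cilium and of centriolar satellites had a peak in 2 or more clones at 7 of 12 members (58.3%, all genes 23.3%). CEP43, also called FOP, and CEP350, which are known to bind each other, and CEP20, a protein related to FOP, each had one in all 3 clones. CEP43 had folds of 3.39, 5.06 and 2.40 in clones 1, 2 and 3, CEP350 had 2.35, 4.0 and 2.23, and CEP20 had 3.38, 5.67 and 2.60. The 3 genes shared an order, with clone 2 highest and clone 3 lowest. In −log10 q, CEP43 had 10.9, 19.9 and 3.29, CEP350 6.5, 15.7 and 3.62, and CEP20 6.79, 13.6 and 2.60 in clones 1, 2 and 3. The pile-ups, which are not scaled for depth, were closer to each other, with 56, 60 and 45 reads at CEP43, 68, 63 and 57 at CEP350 and 36, 36 and 32 at CEP20. The implied background at these 3 genes was lowest in clone 2, with 11.0, 15 and 5.52 reads at CEP43, CEP350 and CEP20, against 15.8, 28.4 and 9.94 in clone 1 and 18.1, 25.0 and 11.7 in clone 3. Summits lay at −90, −160 and −156 bp for CEP43, −118, −60 and −188 bp for CEP350 and −141, −196 and −152 bp for CEP20, all within the printed windows. Folds are relative to each list's own background, so this order compares peaks within libraries and not openness between clones. The CEP43 peaks were at 166998931-166999567, 166999202-166999358 and 166999205-166999442 on chromosome 6, those of CEP350 at 179954541-179955059, 179954537-179954803 and 179954570-179954777 on chromosome 1, and those of CEP20 at 15888521-15888826, 15888673-15888843 and 15888572-15888802 on chromosome 16. Clone 2 also had the highest median fold over all its peaks, 4.16 against 3.54 in clone 1 and 3.35 in clone 3.

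CEP131, a satellite protein, had the strongest CEP peak of clone 2, with a −log10 q of 25.9, a fold of 5.07 and rank 231 of 24981. In clone 1 its fold was 3.47 and its −log10 q 7.10, and clone 3 had no peak there. CEP78, a component of the distal centriole, had a fold of 3.97 in clone 1 and 4.75 in clone 2. CEP290, a structural protein of the transition zone, had low folds, 1.98 in clone 1 and 2.79 in clone 2, with −log10 q values of 2.46 and 4.71.

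CEP19, which recruits the GTPase RABL2 to the basal body, had the highest fold of any CEP gene in clone 1, 6.89 with a −log10 q of 10.4, and none in clones 2 and 3. Its pile-up was 21 reads over an implied background of 2.19, against 81 over 29.7 at CEP152 in the same clone. CEP72, another satellite protein, had a weak peak in clone 2 only, with a fold of 3.99 and a −log10 q of 3.38. CEP41, known for its part in tubulin glutamylation in cilia, CEP126 and CEP162 had none.

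Of the 6 genes placed with the appendages of the mother centriole, 3 had a peak in 2 or more clones (50%, all genes 23.3%). CEP170, of the subdistal appendages, had one in all 3, with folds of 2.17, 4.19 and 2.81 and −log10 q values of 2.94, 12.3 and 2.08 in clones 1, 2 and 3. These peaks lay on chromosome 1 at 243255808-243256101, 243255836-243256017 and 243255297-243255446, with pile-ups of 43, 47 and 23 reads, in a window shared with SDCCAG8. The clones did not point to the same spot, because the best peak of clone 3 lay 415 bp inside the gene and those of clones 1 and 2 lay at −182 and −201 bp, counted from the gene's outer end. Clones 1 and 2 also had a second peak at the inner place, so every clone pair overlapped at some interval. The annotated start of CEP170 lies 504 bp inside the outer end. The peaks at the inner place therefore overlap its promoter window, and the best peaks of clones 1 and 2 do not. CEP83, at the base of the distal appendages, had a fold of 3.43 in clone 1 and 5.04 in clone 2, but the clone 2 value came from the 3′ end of the gene, with a fold of 2.87 at the 5′ end. CEP89, another distal appendage protein, had 1.90 and 3.15, the first of these being the lowest CEP fold in clone 1. CEP112, CEP128 and CEP164 had no gene-end peak.

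Both genes of the linker between centrosomes had a peak in 2 or more clones, as 23.3% of all genes did. CEP250, or C-NAP1, which anchors the linker, had nearly equal folds of 4.51, 4.29 and 4.44 in clones 1, 2 and 3. It was the only CEP gene with a fold of 3 or more in all 3 clones, and its pile-ups were small, at 17, 16 and 25 reads. The −log10 q values were 5.07, 4.33 and 5.95. Its peaks, on chromosome 20 at 35454771-35455481, 35455022-35455250 and 35455059-35455380, also lay in the window of GDF5. CEP68, a second linker protein, had a fold of 2.43 in clone 1 and 3.80 in clone 2. CEP55, which recruits the abscission machinery to the midbody, had a peak in clone 1 only, with a fold of 2.48 and a −log10 q of 3.05.

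Among 6 CEP genes outside these groups, CEP70, which binds gamma-tubulin, and CEP95 had peaks in clones 1 and 2 (33.3% by the rule of 2 or more clones, all genes 23.3%). CEP95 had folds of 4.12 and 4.09, in a window shared with the RNA helicase gene DDX5. CEP70 had folds of 4.27 and 3.18, but from opposite ends of the gene, and at its 5′ end clone 1 had a fold of 3.96. CEP15, CEP170B, CEP295NL and CEP85L had no gene-end peak.

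Over the CEP genes with a peak, the median fold of the best peak was 3.34, 3.99 and 2.81 in clones 1, 2 and 3, where the median over the best peaks of all genes was 3.55, 3.79 and 2.96. By rank the CEP peaks stood at a median of the top 28.4, 16.7 and 54.4% of the lists of clones 1, 2 and 3, and the best peaks of all genes at 37.2, 31.5 and 44.0%. Of the best CEP peaks, 5 of 26, 8 of 21 and 1 of 9 lay in the top 10% of their list (19.2, 38.1 and 11.1%, all genes 16.4, 20.2 and 11.9%). The implied pile-up at the summit had a median of 37.0, 37.0 and 25.0 reads and ranged over 16 to 81, 11 to 79 and 18 to 93 reads.

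**Figure D3:**
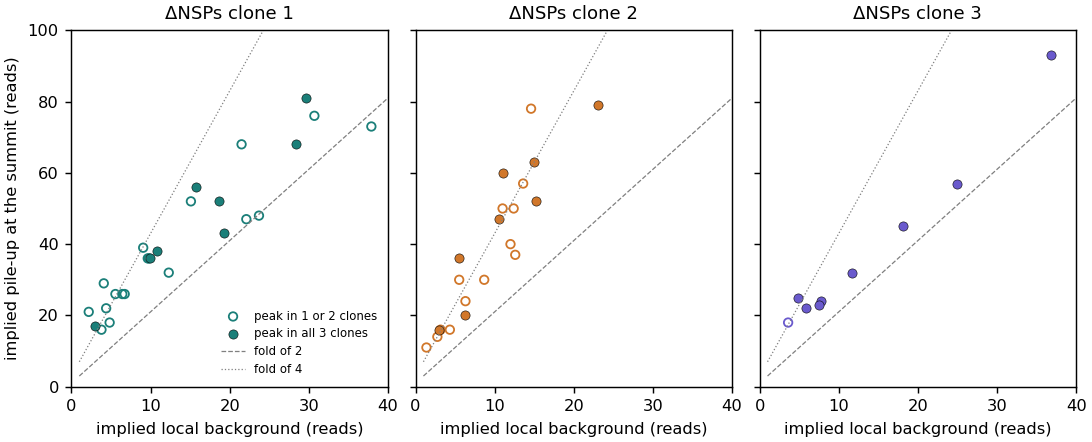
Implied pile-up at the summit against implied local background (reads, linear axes) for the best gene-end peak of each CEP gene, in a panel for each ΔNSPs clone. Filled points are the 8 genes with a peak in all 3 clones, open points the other genes, and the grey lines mark folds of 2 and 4. The filled points run from shallow sites such as CEP250 (17, 16 and 25 reads) to deep ones such as CEP152 (81, 79 and 93 reads).

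CEP peaks lay mostly at gene starts, as did the peaks of called genes in general. A strand was known for 32 of the 38 genes. Among these, the best peak was at the 5′ end at 22 of 23 genes in clone 1, 18 of 19 in clone 2 and 7 of 7 in clone 3, where the shares over all called genes with a known strand were 93.8, 90.0 and 90.9%. The exceptions were CEP70 in clone 1 and CEP83 in clone 2. The median summit lay at −84, −132 and −130 bp from the 5′ end in clones 1, 2 and 3, and 21 of 22, 17 of 18 and 7 of 7 summits were within 500 bp of it. No values over all genes are set beside these summit positions.

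Both of a pair of clones had a peak at 19 CEP genes for clones 1 and 2, at 9 for clones 1 and 3 and at 8 for clones 2 and 3. The best peaks overlapped by at least 1 bp at 16, 8 and 7 of these, and no overlap counts over all genes are set beside them. The exceptions were CEP57, CEP70 and CEP83 between clones 1 and 2, and CEP170 between clone 3 and each of the others. At these genes some other peak within the window did overlap. The 19 genes were 73.1% of the CEP genes of clone 1 and 90.5% of those of clone 2, where the genes shared by these clones were 56.9 and 75.2% over all genes. For clones 1 and 3 the shared genes were 34.6 and 100% of the CEP genes, against 15.9 and 94.8% over all genes. For clones 2 and 3 they were 38.1 and 88.9%, against 19.0 and 85.9%. The best CEP peaks of clone 1 were the widest, at a median of 400 bp, against 164 bp in clone 2 and 238 bp in clone 3. The clones stood in the same order over all gene-end peaks (307, 121 and 185 bp in clones 1, 2 and 3). Those medians take in every gene-end peak and not only the best of each gene, so the widths of the 2 sets are not directly comparable.

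**Figure D4:**
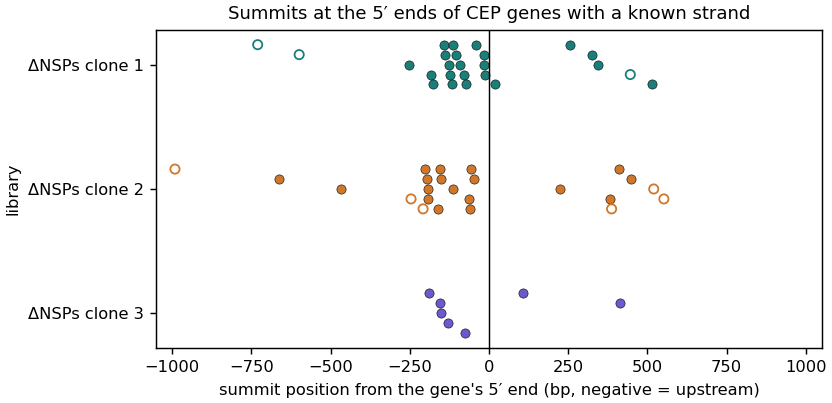
Position of each summit relative to the 5′ end of its CEP gene (bp, negative values upstream, vertical line at the 5′ end), by ΔNSPs clone. Filled points are the best peak of a gene and open points its other peaks, for the genes with a known strand. Most filled points lie just upstream of the line, with medians at −84, −132 and −130 bp in clones 1, 2 and 3.

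Several of the peaks could not be assigned to the CEP gene alone. Of the 28 CEP genes with a gene-end peak, 11 had one that was also within the window of another protein-coding gene. In clones 1, 2 and 3 the best peak was shared at 9, 8 and 3 of the called CEP genes, against 34.0, 33.7 and 45.4% of all called genes. The partners were SDCCAG8, itself a gene of the centrosome and cilium, at CEP170, and ANAPC13, a subunit of the anaphase-promoting complex, at CEP63. Others were FAAP24 of the Fanconi anaemia core complex at CEP89, PIGX of GPI anchor synthesis at CEP19, and FAM76B, TMTC3 and SH3BGRL3 at CEP57, CEP290 and CEP85. Counting only peaks in no other gene's window, 12 CEP genes had one in at least 2 clones (31.6%, against 14.4% of all genes).

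Of the peaks just inside the 1000 bp window, the farthest lay 971 bp from CEP350, in clone 2, and the next 884 bp from CEP83, also in clone 2. Neither changed the number of clones counted for its gene. Just outside, the nearest peaks to genes without a gene-end peak were 5.02 kb from an end of CEP170B and 5.91 kb from an end of CEP164, both in clone 2. CEP126 and CEP15 had no peak of any clone nearer than 221 and 884 kb to an end.

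At 3 genes a peak lay at an annotated start and not at a gene end. CEP164, the distal appendage protein that brings TTBK2 to the centriole, has an annotated start that lies 6.08 kb inside the gene's outer end. Peaks lay at that start in clones 1 and 2, at chromosome 11, 117327728-117328085 and 117327688-117327870, with folds of 3.60 and 3.65 and −log10 q values of 8.61 and 7.36. Their summits were at −47 and −93 bp from the start, within the range of the summits at other CEP genes. CEP128, of the subdistal appendages, likewise had a weak clone 1 peak at a start 17.8 kb inside the gene, with a fold of 2.60 and a −log10 q of 2.03. CEP85L had weak peaks at its inner start, 58.5 kb inside the gene, in clones 1 and 2, with folds of 3.79 and 3.22 and −log10 q values of 3.37 and 2.06.

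With any start in the promoter table used in place of gene ends, a choice made after these values were seen, 19 of the 32 CEP genes in that table had a peak in at least 2 clones (59.4%, against 25.4% of 15813 genes). By this count CEP41, CEP112, CEP126 and CEP162 were the 4 genes of the 32 without a peak in any clone.

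Promoter windows of 32 CEP genes were matched in the RefSeq table (GRCh38.p14), and those of the other 6 were not. A single window was searched for each gene, at the start nearest the gene's outer end, on both strands. The median GC content of the windows was 61.8%, against 62.7% over 15813 promoters, while the observed over expected ratio of CpG had a median of 0.89, against 0.76. A match is a run of letters in the window and does not show that a factor binds. TTTGAA, the letters of the cell cycle genes homology region found at promoters of many late cell cycle genes, was in 13 of 32 windows (40.6%), against 12.2% of all promoters. CCAAT was in 18 (56.2%, all promoters 36.4%), and GGGCGG, the GC box, in 22 (68.8%, all promoters 58.3%). CCGGAAG, the ETS core, was in 5 (15.6%, all promoters 14.1%) and AAGATGGCG, the YY1 core, in 2 (6.25%, all promoters 2.69%). GCGCATGCG, an NRF1 core, and TGACGTCA, the cAMP response element, were in none of these 32 windows.

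GTTGCC, an arm of the X-box that RFX factors of ciliary genes recognise, was in 10 of 32 windows (31.2%), against 12.6% of all promoters. The matches divided unevenly, with 1 among the 17 CEP genes with a peak in 2 or more clones, which was CEP89, and 9 among the 15 others. Over all promoters the reverse held slightly, since 27.5% of genes with a GTTGCC match and 25.1% of those without had a peak in 2 or more clones. With any annotated start counted, CEP164 and CEP85L joined CEP89, giving 3 of 10 CEP genes with the match (30.0%) and 16 of 22 without it (72.7%). At CEP85L the match and the peaks belong to different starts. Its peaks lay at the start 58.5 kb inside the gene, and no peak overlapped the outer window that was searched. The longer arm GTTGCCATG, which contains GTTGCC, was in 1 CEP window (3.12%, all promoters 0.835%), that of CEP112. The split into 17 and 15 genes follows gene-end peaks and not peaks over the searched windows. Among the 17, the windows of CEP120, CEP70 and CEP83 overlapped no peak. Among the 15, that of CEP164 overlapped peaks in 2 clones. The uneven division was noticed in these data, rests on few genes and was not tested.

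Matches in 6 of the 10 genes are shown with their flanks, to set CEP89, which had gene-end peaks in 2 clones, beside genes without a gene-end peak. Not all of these matches lie away from peaks. The CEP164 match lies in the clone 1 peak and partly in the clone 2 peak at that gene's inner start. The CEP128 match lies in the clone 1 peak at its inner start. CEP85L, which also has a match and no gene-end peak, is not shown. CEP97, CEP135 and CEP44, which have a match and a gene-end peak in 1 clone, are not shown either. The CEP97 and CEP135 matches lie in the clone 1 peaks of those genes, and the CEP44 match lies outside its clone 2 peak. Both matches of CEP112 are given, and the first 2 of the 3 in CEP41 fall in 1 run. Each run is 30 bases of the gene's strand, 5′ to 3′ (RefSeq, GRCh38.p14), with every GTTGCC and its reverse complement in capitals.
CEP89: cggtacccactgGTTGCCaagaacgaccgg
CEP164: tgcgcgctgcagGGCAACaccccggcgtcc
CEP128: cggctagttcaaGTTGCCatagctgcgagt
CEP41: ccggcgtcccgcGTTGCCcttGGCAACcat
CEP112: gagcgtcgccatGGCAACggggccgcgcgc
CEP112: gaacgtcgccatGGCAACcgcaccgcaggc
CEP126: agggatgcttggGTTGCCacccgccgctcg
The CEP89 match starts at −125 bp from the gene's start, between the clone 1 and clone 2 summits at −177 and −63 bp. The CEP41 matches start at −160, −151 and 4 bp, the last 2 in the other direction, and those of CEP112 at −166 and −55 bp.

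**Figure D5:**
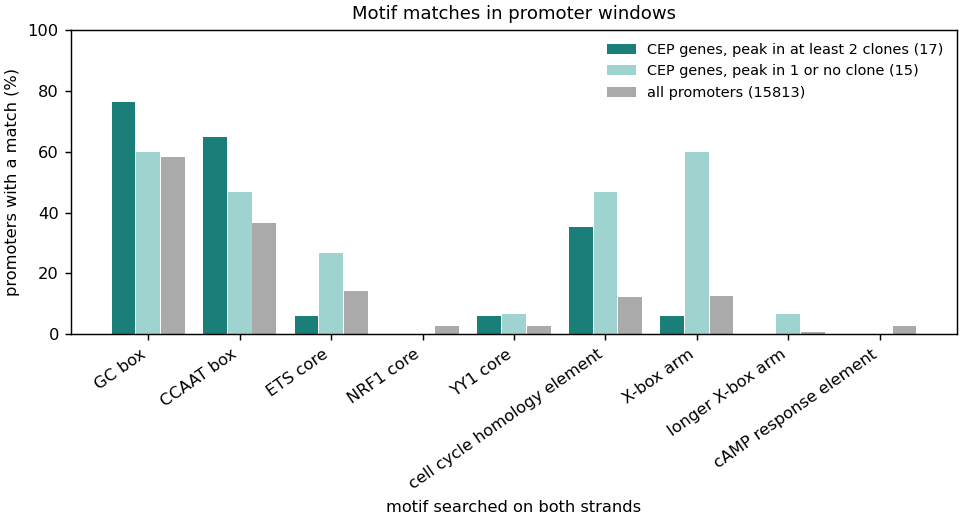
Share of promoter windows with each motif (%, vertical axis) for CEP genes with a gene-end peak in 2 or more clones (17 windows, dark green), other CEP genes (15 windows, light green) and all promoters (15813 windows, grey). A gene-end peak need not overlap the window. The X-box arm stands at 1 of 17, 9 of 15 and 12.6% in that order, and the cell cycle homology element at 6 of 17, 7 of 15 and 12.2%.

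Other centrosome genes also carried peaks. A list of 76 symbols not named CEP, mostly of centriole, pericentriolar, spindle pole and cilium genes, matched 73 genes. These are called other centrosome genes here, though not every member is a centrosome gene in the strict sense. Of the 73, 32 met the rule of 2 or more clones without any control line (43.8%, where all genes stood at 23.3%). In clones 1, 2 and 3 the list stood at 55, 36 and 11 of 73 genes (75.3, 49.3 and 15.1%, all genes 39.1, 29.6 and 6.55%). All 3 clones had a peak at 11 of them (15.1%, all genes 5.40%). Those with the lowest rank sums were MZT1, a small protein of the gamma-tubulin ring complex (folds 2.46, 3.76 and 1.80 in clones 1, 2 and 3), POC1A of the centriole wall (4.54, 4.10 and 3.14) and HAUS3 of the augmin complex (3.90, 4.50 and 3.30). WDR62, a spindle pole protein (2.71, 3.04 and 2.10), HAUS8 (4.18, 3.55 and 3.62) and CCDC61 (2.59, 3.42 and 2.20) followed. The duplication kinase PLK4, which CEP152 and CEP192 recruit, had a peak in clone 1 only, with a fold of 4.51, and so did SASS6 of the cartwheel, with 3.06 in a window shared with TRMT13. STIL had a fold of 2.17 in clone 1 and 2.53 in clone 2, and ASPM, CENATAC, CETN1 and HAUS1 had none. PLK4, SASS6 and STIL were named after their values were seen. The count of 32 was 11 without clone 1 (15.1%, all genes 5.63%) and 11 without clone 2 (15.1%, all genes 6.21%). With equally long clone lists it was 5 (6.85%, all genes 4.90%). The windows of MZT1, HAUS3, WDR62 and HAUS8 were shared with BORA, POLN, THAP8 and MYO9B. Whether the CEP genes differ from this list was not tested.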

How the data were processed

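ATAC-seq peak lists of 6 U937 libraries were used, 1 list a library, with no pooled list. Sample titles gave each library's group and number. Per the submitters' processing notes the tools were FastQC, Bowtie2, Picard and MACS2 on GRCh38. Versions, settings and any read shift for the transposase were not given in the sources used here. Every list gives, as the authors deposited it, a fold enrichment (a ratio over local background) and −log10 p and q per summit. Summits sharing an interval were counted as 1 peak with its highest −log10 q, and a negative summit offset (127 lines of clone 2) was set to 0. Peaks were matched to 1000 bp either side of both ends of 19974 protein-coding genes (RefSeq, GRCh38.p14) by at least 1 bp. A gene's best peak has the highest −log10 q, and ranks are within a list.

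Pile-up and background were solved from fold, as (pile-up + 1)/(background + 1), and p, as a Poisson tail. All 66 CEP peaks gave whole pile-ups within 0.05 read. Matching and solving were checked on simulated data. The values of 1 CEP gene, which stays in all counts, are not reported here. Strands and sequences came from the RefSeq promoter table, which held 15813 of the genes. Members and lists were chosen with earlier results of these data known, so counts are set beside the share over all genes and no test was run. By rule, CEP genes with peaks in all 3 clones are described in full, ordered by their summed ranks, those in 2 or 1 clone by folds, and the rest by name; for the other centrosome genes, up to 6 found in all 3 clones and 4 without a peak are named. Alternatives were 2 other windows, stricter q and fold, summits only, equally long lists, 5′ ends only, unshared peaks, annotated starts, and leaving out each library. Scripts used Python 3.11.15, pandas 2.3.3, NumPy 2.4.6, SciPy 1.17.1 and matplotlib 3.10.9.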

Additional observations from a re-analysis of the deposited data

How the results depend on the processing

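The count of CEP genes with a peak in 2 or more clones was 19 with a 500 bp window (all genes 20.6%). It stayed at 20 with 2500 bp, while the share over all genes rose from 23.3% with 1000 bp to 27.1%. It was 20 with summits only (all genes 22.9%). With 5′ ends only it was 17 of 32 (23.7% of 15813 genes). It moved by more than 1.5 times under the settings that follow. With a −log10 q of 5 or more it was 9 (23.7%, all genes 11.0%), with 12 and 2 CEP genes in clones 2 and 3 (all genes 18.9 and 1.83%), 1 in all 3 clones (CEP152; 2.63%, all genes 1.26%) and 16 other centrosome genes (21.9%). With a fold of 3 or more it was 13 (34.2%, all genes 14.3%), with 3 CEP genes in clone 3 (all genes 3.20%), 1 in all 3 clones (CEP250; all genes 1.88%) and 18 other centrosome genes (24.7%). With each clone list reduced to its top 2188 peaks it was 5 (13.2%, all genes 4.90%), with 7 CEP genes in each of clones 1 and 2 (all genes 9.53 and 5.31%), 2 in all 3 clones (CEP152 and CEP43; all genes 1.15%) and 5 other centrosome genes (6.85%, near the 4.90% of all genes). These settings keep fewer peaks by construction. With peaks in no other gene's window it was 12 (all genes 14.4%).

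Leaving out a library gave 8 to 20 CEP genes in at least 2 clones (all genes 5.63 to 23.3%). In all remaining clones it gave 8 to 19 (all genes 5.40 to 22.3%). The other centrosome genes in at least 2 clones numbered 11 to 32 (all genes 5.63 to 23.3%). The CEP counts in at least 2 clones fell to 8 without clone 1 (all genes 5.63%) and 9 without clone 2 (6.21%). This was because both remaining clones had to share the gene. Clones 1 and 2 shared 19 CEP genes without clone 3 (all genes 22.3%). Leaving out a control line changed none of these 3 counts. No paired analysis was possible because the control lists hold no peak at any CEP gene, so no same-numbered clone and control line both had a value. The gene lost with the 500 bp window was CEP70. The depth of the control lines is unknown, so an absent control peak sets no limit on accessibility.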

Other observations

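Away from both ends, clones 1, 2 and 3 had 9, 16 and 1 peaks in the bodies of 6, 10 and 1 CEP genes. That was 15.8, 26.3 and 2.63% of the CEP genes, against 14.8, 25.1 and 2.64% of all genes. Per megabase of gene body there were 2.38, 4.24 and 0.265 peaks in CEP genes and 3.38, 8.02 and 0.488 in all genes. CEP85 had one at the same place in all 3 clones, 3.78, 3.85 and 3.82 kb inside its 3′ end, where the fold was 3.54 in clone 1, 5.69 in clone 2 and 4.16 in clone 3. The −log10 q there was 6.46, 13.3 and 8.75, against 6.55, 9.44 and 2.30 at its 5′ end. A second CEP85 body peak in clone 2 had a −log10 q of 23.8 and a fold of 5.00, and in clone 1 a peak that overlaps it had 2.36 and 2.74. CEP68 had a body peak 8.67 kb from its 5′ end in clone 1 with a fold of 6.0 and a −log10 q of 13.6, and clone 2 had one at 8.79 kb with 3.82 and 11.0. In clone 1 that body peak stood above the promoter peak of CEP68, whose −log10 q was 7.98. CEP250 had 4 body peaks in clone 2 and none in the other clones, with folds of 4.53 to 7.11. CEP128 had one in clones 1 and 2, with folds of 3.26 and 3.20 and −log10 q values of 8.66 and 4.95, against 2.03 for the clone 1 peak at its inner start. The counts include the peaks at the inner starts of CEP164, CEP128 and CEP85L.

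CEP genes were split by the CpG ratio of their promoter windows at the median over all promoters, and 23 of 32 stood at or above it. At or above the median, 13 of 23 CEP genes (56.5%) and 36.4% of all genes had a peak in 2 or more clones. Below it the shares were 4 of 9 CEP genes (44.4%) and 14.4% of all genes. CpG content therefore moved with the calls over all genes, and its part in the CEP counts was not tested further. CEP genes were also long, with a median length of 64.2 kb against 24.2 kb over all protein-coding genes.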
